A study of Homo sapiens with 30 samples.

Results

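The transcription factors described here are 9 genes that mark the adrenergic state of neuroblastoma: PHOX2A, HAND2, ISL1, SIX3, SATB1, KLF7, GATA2, GATA3 and TBX2. They were taken as a list of names, chosen with earlier results of these data known, and all 9 were found among the 52007 gene IDs shared by the 3 expression tables. Gene expression had been measured by RNA sequencing in 30 libraries of 3 established human neuroblastoma lines. The cells had been transfected by lipofectamine 2000 with 100 nM of an antisense oligonucleotide (ASO), a short nucleic acid that binds a target RNA. ASO1, ASO2 and ASO10 target NESPR, a long non-coding RNA that the series describes as specific to adrenergic cells, and NCA is the negative control ASO. IMR32 cells received ASO1, ASO2 or NCA (4 libraries each). NGP and SK-N-BE(2)c cells received ASO2, ASO10 or NCA (3 libraries each). All groups, controls included, had thus been lipofected, and no untransfected cells were analysed here. The question was how each factor's RNA level differed between cells given a NESPR ASO and NCA cells of the same line.

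Neuroblastoma arises from the sympathoadrenal lineage of the neural crest. Its adrenergic cells keep the program of immature sympathetic neurons, held by a small set of transcription factors that bind one another's regulatory regions and those of noradrenaline genes, as opposed to a mesenchymal state with other factors. PHOX2A is a paired-type homeodomain protein that activates dopamine beta-hydroxylase; ISL1 is a LIM homeodomain protein; SIX3 is a homeodomain protein of the sine oculis family, best known from forebrain and eye. HAND2 is a basic helix-loop-helix factor that binds E-boxes, GATA2 and GATA3 are zinc finger proteins that bind GATA motifs, and TBX2 is a T-box factor that often acts as a repressor. KLF7 is a Krüppel-like zinc finger protein of developing neurons, and SATB1 organises chromatin at AT-rich DNA.

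PHOX2A, HAND2 and ISL1 have 1 annotated start each in the RefSeq promoter table (build GRCh38.p14), from 250 bases before to 50 bases after the start. They are shown because PHOX2A was lower with every NESPR ASO, HAND2 was lower in SK-N-BE(2)c and NGP, and ISL1 went in different directions with different ASOs. Capitals mark every match, on either strand, to the motifs bound by the families of these factors: the E-box CANNTG, the GATA site AGATAA, the homeodomain site TAATTA, the T-box site AGGTGTGA, the KLF site CCACACCC and the GC box GGGCGG.
PHOX2A, chr11:72244127-72244426, minus strand: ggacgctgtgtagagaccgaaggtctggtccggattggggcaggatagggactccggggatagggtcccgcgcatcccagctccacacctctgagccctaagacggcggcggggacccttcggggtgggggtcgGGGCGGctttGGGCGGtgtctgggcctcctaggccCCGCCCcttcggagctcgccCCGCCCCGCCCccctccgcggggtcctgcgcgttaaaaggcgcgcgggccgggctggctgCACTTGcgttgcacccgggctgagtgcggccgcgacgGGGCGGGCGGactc
HAND2, chr4:173530180-173530479, minus strand: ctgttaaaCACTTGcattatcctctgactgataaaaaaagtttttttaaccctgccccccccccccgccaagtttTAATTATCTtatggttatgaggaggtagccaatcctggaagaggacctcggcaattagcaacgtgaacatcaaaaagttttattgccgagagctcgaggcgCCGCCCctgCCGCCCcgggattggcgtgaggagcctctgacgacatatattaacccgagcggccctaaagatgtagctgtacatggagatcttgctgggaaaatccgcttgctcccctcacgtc
ISL1, chr5:51383198-51383497, plus strand: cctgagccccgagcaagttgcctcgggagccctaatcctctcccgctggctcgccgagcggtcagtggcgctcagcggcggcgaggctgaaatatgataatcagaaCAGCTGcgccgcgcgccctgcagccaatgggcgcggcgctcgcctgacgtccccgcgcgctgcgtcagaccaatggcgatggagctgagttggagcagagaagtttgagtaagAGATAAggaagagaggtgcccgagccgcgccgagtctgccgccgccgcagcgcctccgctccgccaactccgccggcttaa
The PHOX2A window is 73.7% GC and holds 7 GC boxes and 1 E-box. The HAND2 window is 50.3% GC and holds 1 E-box, 2 GC boxes and a homeodomain site that overlaps a GATA site. The ISL1 window is 66.7% GC and holds 1 E-box and 1 GATA site. Of the 35116 promoters of this length in the table, 68.7% hold an E-box, 45.0% a GC box, 10.3% the GATA site and 4.84% the homeodomain site. A match is a description of letters and says nothing of binding in these cells.

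The libraries held 9393587 to 15060356 reads, as recovered from the steps between low values. The control columns of SK-N-BE(2)c and NGP are headed NCA for replicate 1 but NCA2 for replicates 2 and 3. By title they form 1 group, and the labels do not settle whether the oligonucleotide was the same. The labels do not say whether replicates were separate cultures, so p-values measure the spread between these libraries, which may be technical. NESPR is not listed by that name in the symbol tables used, so the level of the targeted RNA was not checked here. All 8 sympathetic neuroblast markers examined (among them DBH, TH, CHGA and STMN2) had a mean of at least 10 in every group. Their summed level in NGP was 28772 to 30087 with ASO2, 31599 to 32955 with ASO10 and 33150 to 34170 with NCA. For IMR32 it was 14990 to 16251 with ASO1, 13251 to 15366 with ASO2 and 16036 to 16769 with NCA. For SK-N-BE(2)c it was 53568 to 54097 with ASO2, 50734.5 to 52253 with ASO10 and 53914 to 59077.5 with NCA. Of the markers of other cells, the Schwann markers SOX10 and CDH19 were at 3 reads or fewer in every library, as was the T cell marker CD3E. PRRX1, a factor of the mesenchymal state, was so in IMR32 and SK-N-BE(2)c. The summed level of 8 mesenchymal or fibroblast markers moved with the ASO. In NGP it was 818 to 903 with ASO2, 511 to 583 with ASO10 and 678 to 717 with NCA. SK-N-BE(2)c gave 625 to 709, 356 to 410 and 431 to 462 in that order. In IMR32 the sum was 1236 to 1289 with ASO1, 1291 to 1423 with ASO2 and 1155 to 1216 with NCA. Single markers did not all follow the sum. In NGP with ASO10, FN1 was called lower (log2 -0.74), but LUM (0.45) and DCN (0.98) were called higher. With ASO2 there FN1 fell (-0.34) and COL1A1 (0.50), COL3A1 (0.69), LUM (1.54) and DCN (1.17) rose. SK-N-BE(2)c cells given ASO2 had less CD44 (-1.13) and more COL1A1 (1.08), LUM (1.09) and DCN (0.49). DCN in NGP and COL1A1 in SK-N-BE(2)c had means under 10 with NCA (5.89 and 8.67). The 6 Schwann markers summed to 67.1 to 81.8 with ASO10 in NGP against 17.4 to 30.0 with NCA, and to 70.5 to 79.8 against 50.2 to 65.5 in SK-N-BE(2)c. Of these, ERBB3 was higher with ASO10 in NGP (mean 63.9 against 9.25, log2 2.71) and in SK-N-BE(2)c (26.4 against 4.04, log2 2.55), and fell with ASO1 in IMR32 (6.99 against 20.1, log2 -1.40). In NGP and SK-N-BE(2)c its mean was under 10 with NCA and also with ASO2 (4.84 and 2.67). ERBB3 thus reached the mean of 10 needed for testing through ASO10 alone, so that the filter itself favoured a call. The 4 immune markers summed to 26.7 to 38.9 with ASO2 and 30.4 to 38.7 with ASO10 in NGP against 6.15 to 22.2 with NCA, and to 44.2 to 60.7 and 46.5 to 49.1 in SK-N-BE(2)c against 27.2 to 29.9. In IMR32 the immune sum was 12.6 to 18.8 with ASO2 against 7.69 to 8.63. Of the immune markers, CD14 alone had a mean of at least 10 in NGP and SK-N-BE(2)c, and none had in IMR32. In NGP its mean was 26.6 with ASO2 and 21.4 with ASO10 against 11.9 with NCA. The 3 epithelial markers summed to 18.7 to 27.5 with ASO10 in NGP against 8.19 to 11.3, and to 26.4 to 27.6 with ASO2 in SK-N-BE(2)c against 7.71 to 13.1. Only EPCAM in NGP and KRT8 in SK-N-BE(2)c had a mean of at least 10, and each was below 10 with NCA (8.85 and 6.71). The endothelial markers summed to 14.4 to 20.8 with ASO2 and 7.16 to 12.9 with ASO10 in SK-N-BE(2)c against 2.02 to 5.78. Of the 3 endothelial markers 2 were measured there, and neither had a mean of at least 10. The part of these markers in the results below was not tested. In bulk RNA, fewer cells expressing a factor and less of its RNA per cell cannot be told apart.

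In control cells the factors differed in level by line. To compare genes, the normalized count (reads divided by a library's size factor) was divided by the length of the gene's exons in kilobases. In NCA libraries of IMR32, HAND2 was the most abundant at 2750 ± 45 per kb (SD, n = 4), followed by PHOX2A at 1237 ± 55 and GATA3 at 1068 ± 33. KLF7 (578) and SATB1 (400.3) came next, then TBX2 (303), ISL1 (301) and SIX3 (286), whose libraries overlapped from one to the next, and GATA2 was lowest at 40.4 ± 3.4. In NGP the order was HAND2 at 3545 ± 93 (n = 3), GATA2 (1793) and PHOX2A (1770.4), which overlapped, ISL1 (1501), GATA3 (858), TBX2 (345), KLF7 (163), SATB1 (131) and SIX3 at 33.7 ± 1.3. In SK-N-BE(2)c, GATA2 led at 2770 ± 202, before PHOX2A (1809), HAND2 (1642), TBX2 (749), GATA3 (587), ISL1 (229), KLF7 (212), SIX3 (187) and SATB1 at 27.5 ± 1.5.

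The authors had scaled SK-N-BE(2)c and NGP jointly, so their controls could be compared gene by gene. In NCA cells 8 of the 9 factors differed between these lines by limma's test with Benjamini-Hochberg adjustment over all genes, where 77% of 14537 genes were called. SK-N-BE(2)c had less ISL1 (log2 difference -2.71 ± 0.047 (SE), adjusted p = 3.1e-24), SATB1 (-2.25 ± 0.071 (SE), adjusted p = 4.6e-19), HAND2 (-1.11) and GATA3 (-0.55). It had more SIX3 (2.46 ± 0.13 (SE), adjusted p = 5.8e-15), TBX2 (1.12), GATA2 (0.63) and KLF7 (0.38). PHOX2A was not called, at 0.03 with a 95% interval of -0.12 to 0.18 and adjusted p = 0.70. IMR32 had been scaled on its own, so no test sets its levels against the other lines.

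**Figure D1:**
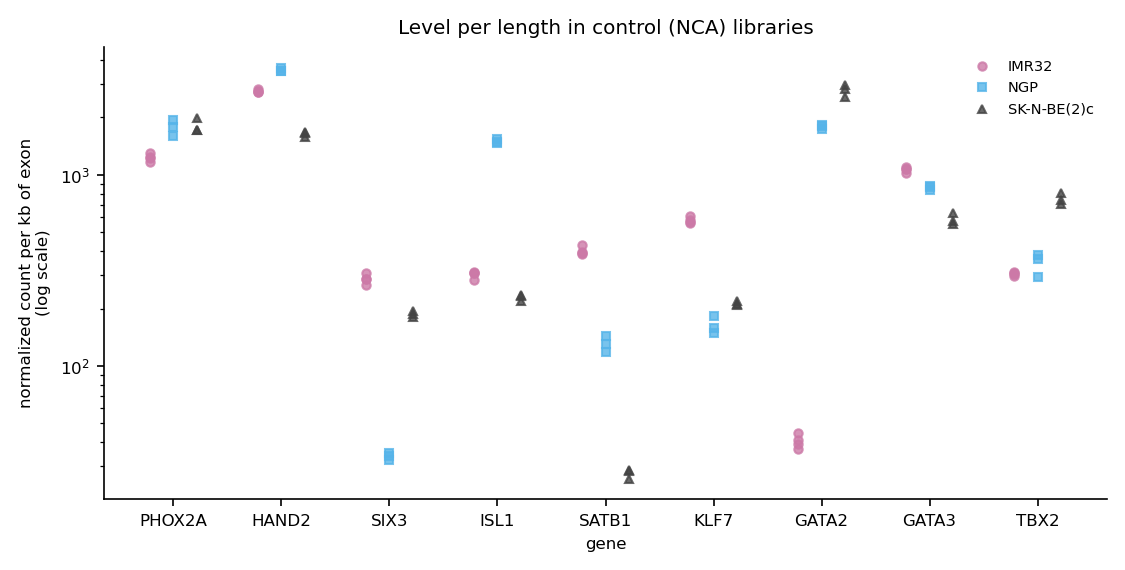
Normalized count per kilobase of exon (log axis) of each factor in the NCA libraries, each point 1 library; IMR32 was scaled apart from the other lines. GATA2 lies near 40.4 in IMR32 against 2770 in SK-N-BE(2)c and 1793 in NGP, and SIX3 is the lowest factor in NGP (33.7).

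Against NCA, each ASO group had a different mix of higher and lower factors. Here and below a gene was called at an adjusted p under 0.05 in limma, and a fold change is on the log2(value + 1) scale. In IMR32, ASO1 changed 7 of the 9 members (2 higher and 5 lower) where 28% of all 17309 genes tested were called, and ASO2 changed 5 (2 higher and 3 lower) where 32.4% were. Of these genes 13.6% were called higher and 14.4% lower with ASO1, and 17.6% and 14.8% with ASO2. In NGP, ASO2 changed 6 (3 higher and 3 lower) against 58.7% of 14440 genes (30.6% higher and 28.1% lower). NGP ASO10 changed 8, all lower, where 54.4% of genes were called, 26.8% higher and 27.6% lower. ASO2 in SK-N-BE(2)c changed 8 (3 higher and 5 lower) against 67% of 13556 genes (33.6% higher and 33.4% lower). SK-N-BE(2)c ASO10 changed 6, all lower, against 58.9% of genes called (27.8% higher and 31.1% lower). The libraries of an ASO and of NCA did not overlap for 8 members with ASO1 and 6 with ASO2 in IMR32, where 27.6% and 30.4% of genes did not overlap. That held for 7 and 8 members in NGP (ASO2 and ASO10) against 62.4% and 59.1% of genes, and for 8 and 6 members in SK-N-BE(2)c against 69.3% and 64.7%. With ASO10 the median member was at -0.52 in SK-N-BE(2)c and -0.49 in NGP, where the median of all genes was -0.031 and -0.026. With ASO2 the median member was at 0.017 in NGP, -0.21 in SK-N-BE(2)c and -0.032 in IMR32, against 0.0090, -0.016 and -0.00079 for all genes. With ASO1 it was at -0.24 against -0.0030. The ASO groups of a line share their NCA libraries, so their values are given side by side and not as separate evidence.

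**Figure D2:**
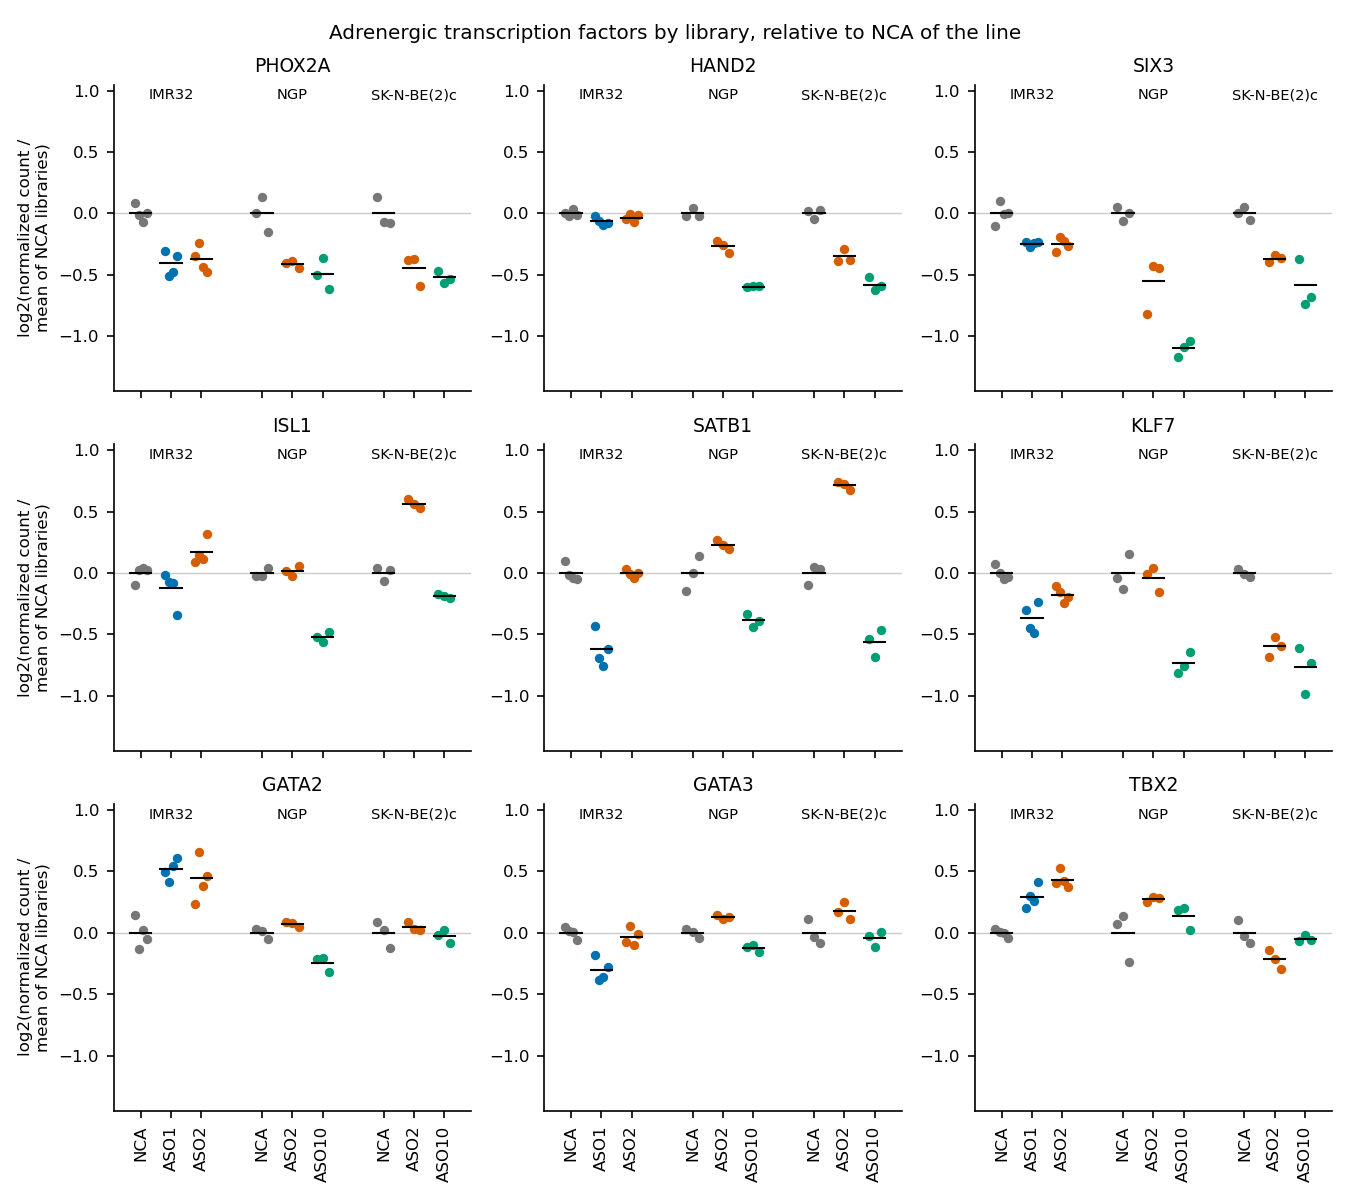
Each panel shows 1 factor and each point 1 library, as the log2 of its normalized count over the mean of the NCA libraries of its line; the black bar is the group mean. PHOX2A and SIX3 lie below NCA in every ASO group, SATB1 lies above NCA with ASO2 and below it with ASO10 in SK-N-BE(2)c and NGP, and GATA2 lies above NCA in IMR32.

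PHOX2A and SIX3 were the members called lower in all 6 comparisons against NCA. PHOX2A in IMR32 had normalized counts of 1780.4, 1552, 1589.5 and 1738 with ASO1, 1731, 1863, 1635 and 1584 with ASO2, and 2335, 2182, 2099 and 2211 with NCA. In NGP they were 2385, 2412 and 2325 with ASO2, 2224, 2449.7 and 2061 with ASO10, and 3171, 3462 and 2842 with NCA. SK-N-BE(2)c had 2476, 2496 and 2137 with ASO2, 2336, 2179 and 2227 with ASO10, and 3542, 3077 and 3062 with NCA. In all 3 lines every library of a NESPR ASO was below every NCA library. A group lies wholly below NCA for 14.2% and 14.1% of genes in the IMR32 comparisons (ASO1 and ASO2), for 30% and 30.5% in NGP (ASO2 and ASO10) and for 34.8% and 34.3% in SK-N-BE(2)c; the shares wholly above NCA were 13.4% and 16.3%, 32.4% and 28.6%, and 34.4% and 30.4% in the same order. The log2 fold change of PHOX2A was -0.41 ± 0.057 (SE), adjusted p = 1.9e-05 with ASO1 and -0.38 ± 0.057 (SE), adjusted p = 5.9e-05 with ASO2 in IMR32. It was -0.41 ± 0.066 (SE), adjusted p = 1.0e-05 with ASO2 and -0.49 ± 0.066 (SE), adjusted p = 8.0e-07 with ASO10 in NGP. In SK-N-BE(2)c it was -0.45 ± 0.064 (SE), adjusted p = 6.5e-07 and -0.52 ± 0.064 (SE), adjusted p = 8.0e-08. PHOX2A thus fell by 22.9% to 30.2%, the narrowest range of fold changes among the 9 members.

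SIX3 differed more between lines. In IMR32 its counts were 615, 596, 610.4 and 614 with ASO1, 581, 632, 618 and 599.9 with ASO2, and 674, 773, 719 and 723 with NCA. In NGP, where it is scarce, they were 48.3, 63.2 and 62.3 with ASO2, 37.7, 39.9 and 41.4 with ASO10, and 88.3, 81.5 and 85.1 with NCA. SK-N-BE(2)c had 359, 373 and 366 with ASO2, 365, 283 and 295 with ASO10, and 473, 489 and 454 with NCA. Again no ASO library reached the NCA range. SIX3 fell by 15.6% and 15.8% in IMR32 (log2 -0.24 and -0.25, adjusted p = 0.0016 and 0.0014). It fell by 31.9% with ASO2 (-0.55 ± 0.18 (SE), adjusted p = 0.01) and 52.7% with ASO10 (-1.08 ± 0.18 (SE), adjusted p = 1.7e-05) in NGP. The log2 fold changes in SK-N-BE(2)c were -0.37 ± 0.093 (SE), adjusted p = 0.0011 with ASO2 and -0.59 ± 0.093 (SE), adjusted p = 3.9e-06 with ASO10. The NGP ASO2 call rests on 1 library: without replicate 1 of that group the value was -0.43 with an adjusted p of 0.068.

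HAND2, the E-box factor, was called lower in NGP and SK-N-BE(2)c and not in IMR32. In NGP its counts were 10947, 10665 and 10229 with ASO2, 8422, 8459.7 and 8459.6 with ASO10, and 12589.7, 13151 and 12552 with NCA. SK-N-BE(2)c had 4528, 4843 and 4537, 4118, 3834 and 3917, and 6001, 5717 and 6021 in that order. In both lines NCA was highest, ASO2 intermediate and ASO10 lowest, with no overlap between the groups. The log2 fold change in NGP was -0.27 ± 0.043 (SE), adjusted p = 8.2e-06 with ASO2 and -0.60 ± 0.043 (SE), adjusted p = 1.6e-11 with ASO10. The SK-N-BE(2)c values were -0.35 ± 0.05 (SE), adjusted p = 6.1e-07 and -0.58 ± 0.05 (SE), adjusted p = 1.1e-10. IMR32 libraries ranged over 9249 to 9759 with ASO1, 9436 to 9869 with ASO2 and 9772 to 10133 with NCA. The differences there were -0.06 (95% interval -0.15 to 0.02) and -0.034 (-0.12 to 0.051), intervals that reach no further than a decrease of 0.15 on the log2 scale.

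KLF7 was called lower in 5 of the 6 comparisons. Its counts in IMR32 were 4337, 3919, 3821 and 4539 with ASO1, 4967, 4816, 4516 and 4678 with ASO2, and 5649, 5361, 5169.6 and 5247 with NCA. NGP gave 1501, 1554 and 1356 with ASO2, 860.0, 897 and 967 with ASO10, and 1469.6, 1379.7 and 1689 with NCA. SK-N-BE(2)c gave 1223, 1372 and 1300.5, 1291, 995 and 1183, and 2016, 1957 and 1923 in that order. NGP ASO2 was the group that overlapped its controls (-0.038, 95% interval -0.19 to 0.11, adjusted p = 0.68). The log2 fold change was -0.73 ± 0.074 (SE), adjusted p = 6.5e-09 in NGP with ASO10, -0.60 ± 0.073 (SE), adjusted p = 3.4e-08 in SK-N-BE(2)c with ASO2, and -0.77 ± 0.073 (SE), adjusted p = 5.0e-10 there with ASO10. In IMR32 it was -0.37 ± 0.054 (SE), adjusted p = 3.0e-05 with ASO1 and -0.18 ± 0.054 (SE), adjusted p = 0.017 with ASO2. The last of these calls was lost without replicate 3 of the ASO2 group (-0.15, adjusted p = 0.053) and without a mean-variance trend (adjusted p = 0.061).

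SATB1, the chromatin organiser, differed in direction between ASOs. In IMR32 its counts were 3982, 3323, 3182 and 3496 with ASO1, 5488, 5344, 5219 and 5371 with ASO2, and 5762, 5314, 5210.2 and 5183 with NCA, so that ASO1 stood apart below and ASO2 overlapped the controls. In NGP they were 2113, 2061 and 2015 with ASO2, 1397, 1296 and 1343 with ASO10, and 1584, 1755 and 1930.1 with NCA. For SK-N-BE(2)c they were 618, 611 and 588, 254, 229 and 267, and 345, 382 and 378 in that order. In both of these lines every ASO2 library was above, and every ASO10 library below, all controls. SATB1 fell with ASO1 in IMR32 (-0.62 ± 0.057 (SE), adjusted p = 1.1e-07), and was at -0.0022 with ASO2 (95% interval -0.12 to 0.12, adjusted p = 0.98). With ASO2 it rose in NGP (0.24 ± 0.064 (SE), adjusted p = 0.0029) and in SK-N-BE(2)c (0.72 ± 0.087 (SE), adjusted p = 3.7e-08). With ASO10 it fell in NGP (-0.38 ± 0.064 (SE), adjusted p = 2.1e-05) and in SK-N-BE(2)c (-0.56 ± 0.087 (SE), adjusted p = 3.5e-06).

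ISL1, the LIM homeodomain factor, also differed between ASOs. Its IMR32 counts were 859, 824, 823 and 684 with ASO1, 926, 960.4, 942 and 1082 with ASO2, and 814, 884, 894 and 883 with NCA. NGP counts were 4373, 4253 and 4504 with ASO2, 3013, 2931 and 3097 with ASO10, and 4253, 4265 and 4459 with NCA. SK-N-BE(2)c counts were 1001, 974 and 954, 585, 580.0 and 575, and 677, 629 and 673 in that order. ASO10 was below the controls in both lines, and ASO2 was above them in SK-N-BE(2)c but overlapped them in NGP. ISL1 fell with ASO10 in NGP (-0.52 ± 0.048 (SE), adjusted p = 1.7e-09) and rose with ASO2 in SK-N-BE(2)c (0.57 ± 0.068 (SE), adjusted p = 3.0e-08). The SK-N-BE(2)c ASO10 value was -0.18 ± 0.068 (SE), adjusted p = 0.022; that call was lost in the count tests (edgeR -0.16, adjusted p = 0.053; DESeq2 -0.15, adjusted p = 0.085) and on leaving out replicate 1 or 3 of NCA or replicate 3 of ASO10. With ASO2 in NGP it was 0.017 (95% interval -0.083 to 0.12). Neither IMR32 value was called, at -0.13 (adjusted p = 0.17) with ASO1 and 0.17 (adjusted p = 0.06) with ASO2; the latter was called with TMM scaling (0.049) and without replicate 1 of ASO2 (0.042).

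GATA2 rose in IMR32, the line where it is scarce. Its counts were 254, 240.3, 263 and 274 with ASO1, 212, 284, 234 and 248 with ASO2, and 199, 164, 183 and 174 with NCA. Every library of either ASO was above every control. The log2 fold change was 0.52 ± 0.088 (SE), adjusted p = 1.6e-04 with ASO1 and 0.44 ± 0.088 (SE), adjusted p = 8.4e-04 with ASO2. Where GATA2 is abundant, it fell with ASO10 in NGP (6415 to 6943 against 7718 to 8171; -0.24 ± 0.046 (SE), adjusted p = 7.1e-05). It was not called with ASO2 in NGP (0.074, 95% interval -0.02 to 0.17) or in SK-N-BE(2)c with ASO2 (0.048, -0.058 to 0.15) or ASO10 (-0.023, -0.13 to 0.082).

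GATA3, the other GATA member, moved by 0.30 or less on the log2 scale. Its counts in IMR32 were 2812 to 3241 with ASO1, 3429 to 3802 with ASO2 and 3516 to 3785 with NCA, and ASO1 alone stood below the controls (-0.30 ± 0.05 (SE), adjusted p = 1.3e-04). In NGP they were 3193 to 3258 with ASO2, 2649 to 2754 with ASO10 and 2858 to 3017 with NCA, without overlap. The values there were 0.13 ± 0.049 (SE), adjusted p = 0.026 with ASO2 and -0.12 ± 0.049 (SE), adjusted p = 0.04 with ASO10. Both NGP calls were lost with no filter on low values (adjusted p = 0.061 and 0.078) and with no trend (0.059 and 0.079). The ASO2 call was also lost without replicate 1 or 3 of ASO2 or replicate 3 of NCA. The ASO10 call was also lost in edgeR (0.081) and DESeq2 (0.082), and without any replicate of ASO10 or replicate 1 or 2 of NCA. GATA3 in SK-N-BE(2)c was at 0.18 ± 0.06 (SE), adjusted p = 0.01 with ASO2, a call lost without replicate 2 of ASO2 (adjusted p = 0.071), without replicate 3 of NCA (0.053) or with no trend (0.054), and at -0.042 with ASO10 (95% interval -0.16 to 0.082). Rescaling the libraries to the same total moved the ASO2 values to 0.060 (adjusted p = 0.30) in NGP and 0.043 (adjusted p = 0.55) in SK-N-BE(2)c. That rescaling shifted the median of all genes in SK-N-BE(2)c ASO2 against NCA by -0.14 on the log2 scale.

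TBX2, the T-box factor, rose in IMR32 with counts of 2103, 2252, 2185 and 2436 with ASO1 and 2423, 2640.3, 2446 and 2364 with ASO2 against 1872, 1839, 1822 and 1780.4 with NCA. No ASO library there overlapped the controls. The log2 fold change was 0.29 ± 0.05 (SE), adjusted p = 1.6e-04 with ASO1 and 0.43 ± 0.05 (SE), adjusted p = 2.7e-06 with ASO2. In NGP counts were 2468 to 2542 with ASO2, 2112 to 2389.8 with ASO10 and 1764 to 2289 with NCA. TBX2 rose there with ASO2 (0.28 ± 0.072 (SE), adjusted p = 0.0016) and was not called with ASO10 (0.15, adjusted p = 0.091), though it was without replicate 3 of ASO10 (0.033) or replicate 2 of NCA (0.011). The NGP ASO2 value was 0.17 (adjusted p = 0.011) without replicate 3 of NCA. TBX2 fell in SK-N-BE(2)c with ASO2 (-0.21 ± 0.055 (SE), adjusted p = 0.0011), where counts were 3685 to 4085 with ASO2, 4299 to 4461 with ASO10 and 4256 to 4848 with NCA, and it was at -0.046 with ASO10 (95% interval -0.16 to 0.066).

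**Figure D3:**
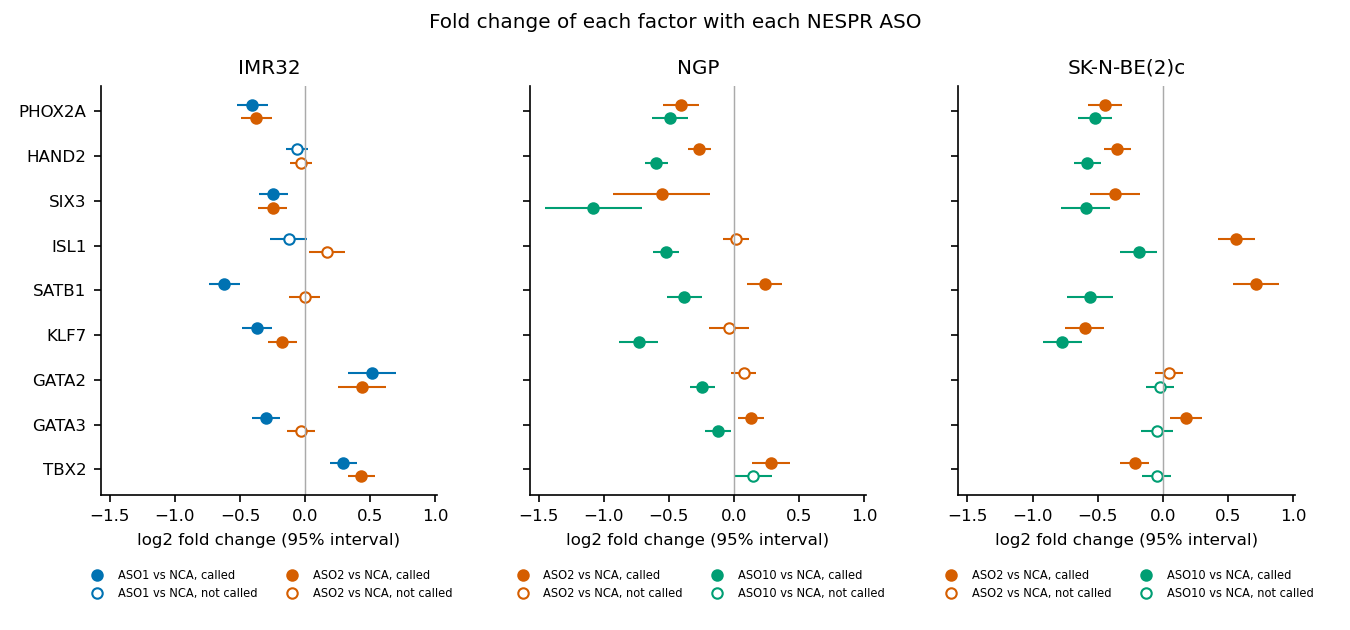
Log2 fold change of each factor against NCA of the line with its 95% interval from limma; filled points were called at an adjusted p under 0.05 and open points were not. All 6 PHOX2A and all 6 SIX3 points are filled and left of 0, and the ISL1 and SATB1 points of ASO2 and ASO10 lie on opposite sides of 0 in SK-N-BE(2)c.

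The ASOs of a line were also compared with each other directly. In NGP, 7 of the 9 members were higher with ASO2 than with ASO10 (58.6% of genes were called, 30.6% higher and 28% lower), led by KLF7 (0.69 ± 0.074 (SE), adjusted p = 1.2e-08), SATB1 (0.62 ± 0.064 (SE), adjusted p = 9.8e-09) and ISL1 (0.54 ± 0.048 (SE), adjusted p = 7.1e-10). The SIX3 call was lost in DESeq2 (adjusted p = 0.054) and without replicate 2 (0.058) or 3 (0.055) of ASO2. All but PHOX2A did not overlap (65% of genes did not, and for 34.1% every ASO2 library was the higher). The members not called were PHOX2A (0.084, 95% interval -0.053 to 0.22) and TBX2 (0.14, -0.012 to 0.29). SK-N-BE(2)c had 6 members higher with ASO2 and TBX2 lower (65.4% of genes were called, 34.6% higher and 30.8% lower), and 5 members did not overlap, as did not 68.2% of genes. SATB1 differed most, by 1.28 ± 0.087 (SE), adjusted p = 4.5e-13, followed by ISL1 (0.75 ± 0.068 (SE), adjusted p = 1.5e-10). HAND2 (0.23), SIX3 (0.23), GATA3 (0.22) and KLF7 (0.17) differed less, and rescaling to the same total ended the calls of SIX3, GATA3 and KLF7 (0.12, 0.11 and 0.062). Those of SIX3 and KLF7 were also lost in edgeR and DESeq2 and without replicate 2 or 3 of either ASO group. The TBX2 call (-0.17) was lost with no trend (adjusted p = 0.058) and without replicate 3 of ASO2 (0.055). PHOX2A (0.073, 95% interval -0.058 to 0.21) and GATA2 (0.071, -0.034 to 0.18) were not called. In IMR32, 4 members were lower with ASO1 than with ASO2 (21.9% of genes were called, 9.17% higher and 12.8% lower): SATB1 (-0.62 ± 0.057 (SE), adjusted p = 2.2e-07), ISL1 (-0.30 ± 0.067 (SE), adjusted p = 0.003), GATA3 (-0.27 ± 0.05 (SE), adjusted p = 5.9e-04) and KLF7 (-0.19 ± 0.054 (SE), adjusted p = 0.013). The KLF7 call was lost without replicate 2 (adjusted p = 0.055) or 3 (0.064) of ASO1 and with no trend (0.057). SATB1, ISL1 and GATA3 did not overlap, as was so for 21% of genes (9.15% with every ASO1 library higher and 11.9% lower). The intervals for PHOX2A (-0.15 to 0.087) and SIX3 (-0.11 to 0.11) included 0 there. PHOX2A was called in none of the 3 comparisons between ASOs, with unadjusted limma p-values of 0.58, 0.22 and 0.26 in the order IMR32, NGP, SK-N-BE(2)c; this does not show that the ASOs act alike.

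Whether an ASO acted differently in the 2 jointly scaled lines was tested as the difference of its effects, SK-N-BE(2)c minus NGP. For ASO2, 4 members differed (16.7% of genes did). ISL1 (0.55 ± 0.067 (SE), adjusted p = 9.3e-06) and SATB1 (0.48 ± 0.1 (SE), adjusted p = 0.0019) rose more in SK-N-BE(2)c, and KLF7 (-0.56 ± 0.12 (SE), adjusted p = 0.0017) and TBX2 (-0.50 ± 0.10 (SE), adjusted p = 0.0016) were shifted downwards there. For ASO10, ISL1 (0.34 ± 0.067 (SE), adjusted p = 0.0013) and GATA2 (0.22 ± 0.07 (SE), adjusted p = 0.033) differed (16.9% of genes did), both less reduced in SK-N-BE(2)c. SIX3 had the largest difference among the members (0.49) but was not called. With TMM scaling SIX3 was called in limma (0.58, adjusted p = 0.023), where the median of all genes also shifted, by 0.093. GATA2 was not called when any of 6 of the 12 libraries was left out, so that the count of members fell to 1. The difference was -0.038 for PHOX2A with ASO2 (95% interval -0.25 to 0.18) and -0.028 with ASO10 (-0.24 to 0.19). For HAND2 it was -0.085 (-0.21 to 0.042) and 0.015 (-0.11 to 0.14).

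Most of these factors have a neighbouring non-coding RNA, in most cases on the opposite strand. Of the 8 found in the tables (HAND2-AS1, GATA3-AS1, GATA2-AS1, TBX2-AS1, SATB1-AS1, SIX3-AS1, ISL1-DT and KLF7-IT1), all 8 passed the filter in IMR32 and 6 in each other line. None was called higher in any of the 6 comparisons. In IMR32, 4 of 8 were called lower with ASO1 and 3 of 8 with ASO2. In NGP all 6 were lower with ASO2 and 5 of 6 with ASO10, and in SK-N-BE(2)c 4 of 6 and 2 of 6. GATA3-AS1 had 158 to 207 normalized counts with ASO2 in NGP against 368 to 443 with NCA (log2 -1.15), and GATA2-AS1 had 110.5 to 157 against 271 to 313 (-1.19). GATA3-AS1 in SK-N-BE(2)c had 63.5 to 67.4 with ASO2 against 116 to 139 with NCA (-0.94), and GATA2-AS1 had 151 to 182 against 302 to 385 (-0.96). Both transcripts were called lower in cells where GATA3 was called higher (0.13 and 0.18) and GATA2 was not called. Both of these GATA3 calls were lost on rescaling to the same total and with no trend, as given above. HAND2-AS1 fell in all 6 comparisons, at -0.19 and -0.38 in IMR32 (ASO1 and ASO2), -0.69 and -0.90 in NGP (ASO2 and ASO10) and -0.91 and -1.05 in SK-N-BE(2)c.

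The log2 ratio of each member to its neighbour was compared within libraries, a test chosen after these values were seen. In NGP with ASO2 the ratio was higher without overlap for all 6 pairs, by 1.28 for GATA3, 1.26 for GATA2, 0.89 for SATB1, 0.80 for TBX2, 0.42 for HAND2 and 0.33 for ISL1. The same ratio in SK-N-BE(2)c with ASO2 was higher without overlap for 5 of 6 pairs, among them GATA3 (1.12), GATA2 (1.01) and ISL1 (0.84), and lower for SIX3 (-0.48). With ASO10 the ratio did not overlap for 4 of 6 pairs in NGP, of which ISL1 was lower (-0.12) and 3 were higher. In SK-N-BE(2)c with ASO10 it did not overlap for 3 of 6, with ISL1 lower (-0.33) and GATA3 (0.44) and HAND2 (0.47) higher. Ratios of other gene pairs were not computed, so these counts have no background beside them. With 3 against 3 libraries a two-sided exact permutation test cannot go below 0.1, which these ratios reached, and over all 40 ratios the smallest adjusted value was 0.148, so none passed. In IMR32 the smallest possible p of 0.0286 was reached by HAND2, GATA2, TBX2, SATB1 and ISL1 with ASO2, and by HAND2 and GATA2 with ASO1. Among all genes typed as antisense in GENCODE 29, 27.1% of 628 were called lower and 9.24% higher in NGP with ASO2, and 32.7% of 450 lower and 10.7% higher in SK-N-BE(2)c. With ASO10 the shares were 14.5% lower and 24% higher in NGP, and 15.3% and 22.9% in SK-N-BE(2)c. IMR32 had 7.43% lower and 9.6% higher with ASO1, and 14.7% and 5.06% with ASO2. HAND2-AS1, GATA2-AS1, TBX2-AS1 and ISL1-DT are typed so, GATA3-AS1 and SIX3-AS1 as lincRNA, and SATB1-AS1 and KLF7-IT1 as neither. Of lincRNA genes, 25.4% were lower and 16.3% higher with ASO2 in NGP, and 34% and 15.2% in SK-N-BE(2)c. With ASO10 these were 15.9% and 28.9% in NGP and 22.4% and 21.8% in SK-N-BE(2)c, and in IMR32 10.2% and 9.95% (ASO1) and 15.3% and 5.89% (ASO2). Exons of HAND2-AS1 overlap 867 of the 3601 exon bases of HAND2 on the other strand (24.1%), so without a stated strand setting for counting their reads cannot be told apart. None of the other 7 pairs shares exon bases in that annotation. The gene spans of GATA3, GATA2, TBX2, SATB1 and KLF7 do overlap those of their neighbours, and KLF7-IT1 is on the same strand as KLF7. Whether unspliced RNA of these factors was counted to their neighbours was not tested.

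**Figure D4:**
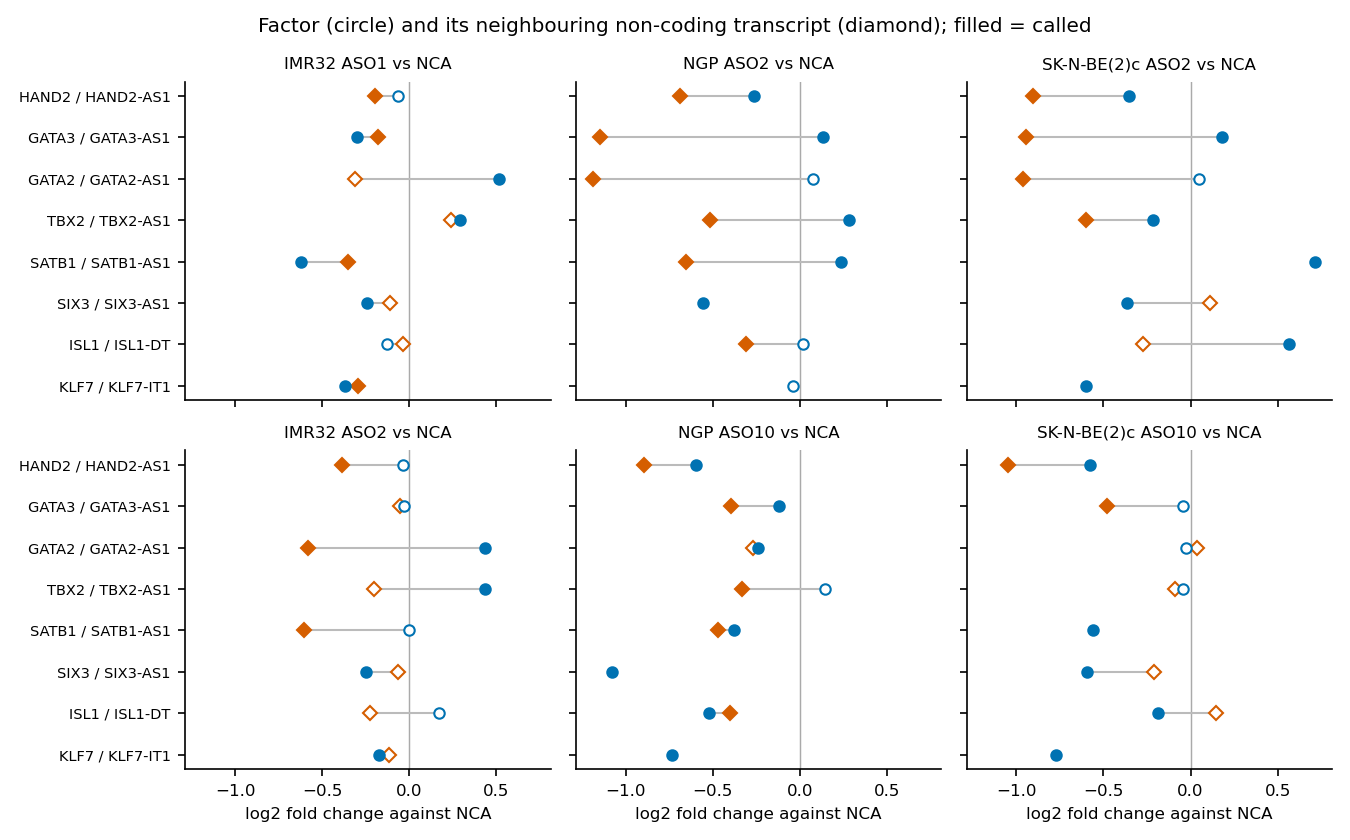
Log2 fold change against NCA of 8 factors (circles) and their neighbouring non-coding RNAs (diamonds), joined by a line; filled symbols were called, and a missing diamond was under the filter of a mean of 10. With ASO2 in NGP all 6 diamonds are filled and lie left of their factors, by 1.28 for GATA3 and 1.26 for GATA2.

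Genes of noradrenaline synthesis, storage and transport and of sympathetic neurons made up a list of 13. In IMR32 11 were tested, of which 5 fell and 1 rose with ASO1 and 6 fell and 1 rose with ASO2. Of 13 tested in the other lines, 6 fell and 2 rose with either ASO in NGP, 9 fell and 3 rose with ASO2 in SK-N-BE(2)c, and 9 fell and none rose with ASO10 there. Of all genes in IMR32, 14.4% fell and 13.6% rose with ASO1, and 14.8% and 17.6% with ASO2. The shares in NGP were 28.1% and 30.6% with ASO2 and 27.6% and 26.8% with ASO10. Those in SK-N-BE(2)c were 33.4% and 33.6% with ASO2 and 31.1% and 27.8% with ASO10. The list median was -0.10 and -0.23 in IMR32 (ASO1 and ASO2), -0.23 and -0.28 in NGP (ASO2 and ASO10) and -0.19 and -0.29 in SK-N-BE(2)c, below the medians of all genes given above. SLC6A2, the noradrenaline transporter, fell most with ASO2, at -1.05 in NGP (938 against 1943 mean normalized counts) and -1.51 in SK-N-BE(2)c (1895 against 5380.2). With ASO10, DDC, the decarboxylase that makes dopamine, fell, at -0.64 in SK-N-BE(2)c and -0.65 in NGP, while SLC18A2, the vesicular monoamine transporter, was at -0.90 in SK-N-BE(2)c. In IMR32, CHGB, a granin of secretory vesicles, rose by 0.70 with ASO1 and fell with ASO2 (-0.26). STMN2, a microtubule regulator of neurons, fell there with both, at -0.58 and -0.45. In the other lines CHGB rose with ASO2, in NGP (0.29) and SK-N-BE(2)c (0.43), and STMN2 rose with ASO10 in NGP (0.45). NPY also rose with ASO2 in NGP (0.81) and SK-N-BE(2)c (0.45), as did DBH with ASO2 in SK-N-BE(2)c (0.27). The remaining risers were GCH1 with ASO10 in NGP (0.46) and RET with ASO2 in IMR32 (0.36).

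Other regulators of the adrenergic state moved in both directions, with 15 of 18 tested in IMR32 and NGP and 13 in SK-N-BE(2)c. Higher and lower calls numbered 5 and 4 for ASO1 and 1 and 2 for ASO2 in IMR32, 6 and 4 for ASO2 and 3 and 6 for ASO10 in NGP, and 5 and 5 for ASO2 and 3 and 7 for ASO10 in SK-N-BE(2)c. Over all genes 28% and 32.4% were called in either direction in IMR32 (ASO1 and ASO2). The shares were 58.7% and 54.4% in NGP (ASO2 and ASO10) and 67% and 58.9% in SK-N-BE(2)c. HEY1, a repressor downstream of Notch, rose by 1.30 and 0.87 in IMR32 (ASO1 and ASO2) and by 1.36 with ASO2 in NGP. ZNF536, a zinc finger protein, fell, at -0.57 with ASO2 in IMR32, -0.59 with ASO10 in NGP, and -1.25 and -0.60 in SK-N-BE(2)c (ASO2 and ASO10). SOX4 rose by 1.17 with ASO2 in NGP.

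Proteins that work with the members as cofactors were called in both directions. Of 19 tested in IMR32, 2 rose and 5 fell with ASO1 and 5 and 3 with ASO2. Of 17 in NGP, 7 rose and 7 fell with ASO2 and 4 and 7 with ASO10, and of 18 in SK-N-BE(2)c, 7 and 8 with ASO2 and 5 and 8 with ASO10. Beside these, the shares of all genes called were 28% (ASO1) and 32.4% (ASO2) in IMR32. They were 58.7% and 54.4% in NGP (ASO2 and ASO10) and 67% and 58.9% in SK-N-BE(2)c. LDB2, which bridges LIM proteins such as ISL1, fell, at -1.14 and -1.07 in NGP (ASO2 and ASO10) and -1.14 with ASO10 in SK-N-BE(2)c. MEIS2, a homeodomain protein, fell, at -1.52 with ASO2 in SK-N-BE(2)c. TLE3, a corepressor, rose with ASO2 in IMR32 (0.41), NGP (1.16) and, by 1.23, in SK-N-BE(2)c.

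Paralogs of the members were counted in the same way, with 21 in the list. Of 14 tested in IMR32, 8 rose and 1 fell with ASO1 and 9 and 1 with ASO2; of 14 in NGP, 9 and none with ASO2 and 7 and 3 with ASO10; of 11 in SK-N-BE(2)c, 5 and 1 with ASO2 and 3 and 1 with ASO10. Some risers had a mean under 10 with NCA and passed the filter through the ASO groups in which they are high, so that the filter itself favoured a call: KLF5 and SIX5 in NGP, KLF5 with ASO2 in SK-N-BE(2)c, and TBX4 and SIX5, which are 2 of the 3 risers with ASO10 there. TBX3, the nearest relative of TBX2, rose in IMR32 by 0.72 and 0.64 (ASO1 and ASO2), as TBX2 did. In NGP TBX3 rose with ASO2 (0.18) and fell with ASO10 (-0.32), where TBX2 was at 0.28 and 0.15. In SK-N-BE(2)c TBX3 rose with ASO2 (0.54), where TBX2 fell (-0.21), and was at 0.0061 with ASO10. SIX5, unlike SIX3, rose with ASO10. Its mean was 62.2 against 4.88 with NCA in NGP (log2 3.53), and 31.0 against 4.70 in SK-N-BE(2)c (2.51). KLF4, unlike KLF7, rose by 1.55 and 1.08 in IMR32 (ASO1 and ASO2) and 1.53 with ASO2 in NGP. Of 18 transcription factors of the mesenchymal state tested in IMR32, 7 rose and 4 fell with ASO1 and 7 and 2 with ASO2 (medians 0.20 and 0.12). Of 16 in NGP, 9 rose and 4 fell with ASO2 (0.51) and 5 and 6 with ASO10 (-0.22), and of 13 in SK-N-BE(2)c, 5 and 4 with ASO2 (0.14) and 3 and 6 with ASO10 (-0.26). The NGP risers with either ASO include IRF1, whose mean there was 4.02 with NCA, 21.1 with ASO2 and 13.4 with ASO10. It too passed the filter through the ASO groups in which it is high. Over all genes the shares called higher and lower were 13.6% and 14.4% (IMR32 ASO1), 17.6% and 14.8% (IMR32 ASO2), 30.6% and 28.1% (NGP ASO2), 26.8% and 27.6% (NGP ASO10), 33.6% and 33.4% (SK-N-BE(2)c ASO2) and 27.8% and 31.1% (SK-N-BE(2)c ASO10). SOX9 rose in IMR32 by 1.13 and 0.97 and IRF1, an interferon-induced factor, by 1.07 with ASO1 there, while ZEB2 fell, at -1.38 with ASO2 in SK-N-BE(2)c.

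Across the 30 libraries, with the mean of each line subtracted, the members differed in how alike their levels were. This is a description over libraries that share treatments, cell lines and size factors. Among pairs of members Pearson's r was highest for HAND2 with SIX3 (0.89), HAND2 with KLF7 (0.88) and ISL1 with SATB1 (0.86), and SATB1 with GATA3 was at 0.82. PHOX2A was nearest to HAND2 (0.78) and SIX3 (0.77) and far from ISL1 (0.089). GATA2 was nearest to TBX2 (0.63), and TBX2 had its lowest value with SIX3 (-0.30). Among 11594 genes with a mean of at least 10 in all tables, the most alike were BAZ2B and SPIRE1 for HAND2 (both 0.97), DCX (0.96) and FNBP1L (0.94) for SATB1, NOD1 (0.95) and CD99L2 (0.94) for SIX3, and NMNAT2 and MAGI3 for KLF7 (both 0.94). For ISL1 they were AURKA (0.92) and KDM5A (0.91), for PHOX2A FRAS1 (0.89) and MVB12B (0.88), for GATA3 MTMR4 (0.88) and CELSR2 (0.86), for GATA2 TBX3 (0.83) and HSPA1B (0.81), and for TBX2 PLCD3 and FDXR (both 0.79).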

How the data were processed

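The deposited tables hold normalized counts of genes per the labels, 1 table for each cell line, used here as a normalized signal. The submitters' processing notes name FastQC 0.11.8, cutadapt 1.18, STAR 2.6.0, HTSeq 0.6.1, DESeq2 1.42.0 and the build hg19 (GRCh37). The annotation, the strand setting for counting and the kit behind each library (stranded total RNA, paired, or stranded mRNA, single-end) are not given in the sources used here. A total RNA library also counts unspliced and non-polyadenylated RNA, which bears on the antisense transcripts.

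Steps between low values gave whole reads (100% of values). Genes with a mean of at least 10 were tested with limma 3.58.1 (R 4.3.3) on log2(value + 1) with a mean-variance trend, in 1 model per line over all 3 groups, with Benjamini-Hochberg adjustment over all genes. NGP and SK-N-BE(2)c, scaled jointly (each of the 18 libraries had a median ratio of 1.012 to their common geometric mean), were also fitted together. Alternatives were pseudocounts, scalings, filters, edgeR 4.0.16, DESeq2 1.42.0, a replicate block and leaving out each library. The script was tested on simulated data. Symbols came from a table of gene names and GENCODE 29, which also gave exon lengths; 90.4% of the gene IDs matched in NGP and as many in SK-N-BE(2)c. In IMR32, 174 entries without a gene ID (0.172% of all values) were left out. Promoters came from RefSeq, matched by symbol for 7 of the 9 members. Members and lists were chosen with earlier results of these data known. From each list the text names, among genes called, up to 2 with the largest fold change in a comparison. For the noradrenaline list it also names all genes called higher, and neighbouring non-coding RNAs were all looked up. The tables hold 0 columns that were not used. Some genes of the lists are not reported here by name.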

Additional observations from a re-analysis of the deposited data

Results flagged for a closer look

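The results for 4 genes stood out by how they differed between NGP and SK-N-BE(2)c under ASO2, tested as a difference of effects in limma with Benjamini-Hochberg adjustment. ISL1 (0.55) and SATB1 (0.48) were shifted upwards in SK-N-BE(2)c, and KLF7 (-0.56) and TBX2 (-0.50) downwards. The 12 refits that left out 1 library each kept all of these calls. Under ASO10 the effect differed for ISL1 (0.34) and for GATA2 (0.22), and the GATA2 call was lost in 6 of 12 such refits.

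In addition, 1 library stood apart from its group. Among the 4 NCA libraries of IMR32, the lowest for ISL1 (814 against 883 to 894) was separated from the next by 0.86 of the range of the group. Over the 27 groups of members examined in this way, chance would flag about 1 in 20.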

How the results depend on the processing

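Over the 6 comparisons against NCA, the 9 members and 11 alternatives gave 594 values, of which 549 kept their direction and side of the threshold, 37 lost the call (25 of them under a minimum log2 fold change of 0.5), 3 gained it and 5 changed sign. Of 360 values with 1 library left out, 332 were kept, 15 lost the call, 3 gained it and 10 changed sign; no value that changed sign had been called. PHOX2A and HAND2 kept every call apart from that fold change minimum, and so did SIX3 apart from the library named in the report. Where replicate 1 of NCA, the one spelled otherwise, was left out, GATA3 with ASO10 lost its call in NGP and ISL1 with ASO10 in SK-N-BE(2)c.

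With a minimum of 0.5, members called numbered 2 (IMR32 ASO1), 0 (IMR32 ASO2) and 1 (ASO1 against ASO2) in IMR32, 1 (ASO2), 4 (ASO10) and 4 (ASO2 against ASO10) in NGP, and 3 (ASO2) and 2 (ASO2 against ASO10) in SK-N-BE(2)c, with 1215, 1224 and 817 genes in IMR32, 4599, 4176 and 4824 in NGP, and 5463 (ASO2), 4055 (ASO10) and 5145 (between ASOs) in SK-N-BE(2)c. SK-N-BE(2)c ASO2 against ASO10 gave 4 members both when rescaled to the same total and with no trend, and 4 to 7 with a library left out. The ASO10 effect gave 1 to 2 members with a library left out. Rescaling to the same total changed sign for HAND2 (0.023) and PHOX2A (0.022) between the IMR32 ASOs, ISL1 with ASO2 in NGP (-0.053), GATA2 with ASO2 in SK-N-BE(2)c (-0.089), PHOX2A (-0.039) and GATA2 (-0.041) between the ASOs there, and GATA3 in the ASO2 effect (-0.018). TMM scaling did so for SATB1 with ASO2 in IMR32 (0.0070), and for KLF7 (0.053) and PHOX2A (0.065) in the ASO10 effect. GATA2 with ASO10 in SK-N-BE(2)c was at 0.0025 in edgeR and 0.014 in DESeq2.

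The share of called genes that were higher moved with rescaling from 50.2% to 38.4% (SK-N-BE(2)c ASO2), from 41.8% to 59.8% (IMR32 ASO1 against ASO2), from 52.9% to 42.3% (SK-N-BE(2)c ASO2 against ASO10) and from 52.5% to 32.8% (ASO2 effect), and with TMM from 47.9% to 72.5% (ASO10 effect).

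Leaving out 1 library at a time gave ranges across 0 for SIX3 (-0.018 to 0.023) and PHOX2A (-0.067 to 0.012) between the IMR32 ASOs, SATB1 with ASO2 in IMR32 (-0.019 to 0.032), ISL1 (-0.0040 to 0.039) and KLF7 (-0.10 to 0.044) with ASO2 in NGP, GATA2 with ASO2 (-0.011 to 0.093) and GATA3 (-0.081 to 0.016), TBX2 (-0.088 to 0.0064) and GATA2 (-0.082 to 0.022) with ASO10 in SK-N-BE(2)c, PHOX2A (-0.11 to 0.035) and GATA2 (-0.085 to 0.019) in the ASO2 effect, KLF7 (-0.12 to 0.063), HAND2 (-0.014 to 0.038) and PHOX2A (-0.096 to 0.046) in the ASO10 effect, and PHOX2A between the NCA groups (-0.041 to 0.10). The cause of these changes was not tested.

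Replicate numbers are shared between groups, but in no pair of groups did every same-numbered pair of libraries deviate together (correlation above 0.1); in IMR32 ASO1 and NCA it ranged from 0.055 to 0.32, and 3 of 4 libraries correlated best with their own number. With the replicate block no member lost its call, and ISL1 with ASO2 in IMR32 (0.17, adjusted p = 0.011), TBX2 between the IMR32 ASOs (-0.14, adjusted p = 0.0048) and TBX2 with ASO10 in NGP (0.15, adjusted p = 0.048) gained one. SIX3 in NGP, at 38 to 88 normalized counts, is the member whose depth limits precision most.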
